A study of Rattus norvegicus with 8 samples.

Results

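Heat shock proteins are molecular chaperones, and 10 of their genes are described here in the rat basolateral amygdala: the small heat shock proteins Hspb1, Cryab and Hspb8, and the larger chaperones Hspa1b, Hspa5, Hspa8, Hsp90aa1, Hsph1, Dnajb1 and Hspd1. The genes were chosen by name, with earlier results of these data known. A probe set was used where the array annotation gave it a single symbol among them. On that rule 7 of the 10 genes could be read, by 10 probe sets, out of 14217 genes on the array with a probe set of their own. Hspa1b, Hspa8 and Hsp90aa1 have no values here, because their 4 probe sets carry a further symbol as well (Hspa1a, Haus8l2 and Hsp90aa1-ps17, respectively). Of the 10 probe sets, 8 passed the filter on dim probe sets (a mean log2 signal over 4.35, which is a signal of 20.3) and were tested. The remaining 2, second probe sets of Hspb8 and Dnajb1, lay under that level on all 8 arrays.

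The study asked how status epilepticus changes gene expression in the amygdala of rats trained with a tone and a shock that were paired or unpaired. It used 8 Affymetrix rat whole-genome arrays, a pair (lettered A and B) for each of 4 groups, and each array carries amplified RNA pooled from 2 rats (16 rats in all). Epileptogenic rats had status epilepticus after electrical stimulation of the amygdala and showed no spontaneous seizures, while control rats were operated on and not stimulated. Every rat of every group was habituated to the apparatus in 5 sessions and trained on day 8 with 2 trials, each made of a 75 dB tone lasting 20 s and a footshock of 1.5 mA lasting 1 s. In paired training the tone ended together with the shock, and in unpaired training the shock preceded the tone. Tissue was taken 3 h later from the lateral and basal nuclei on the operated side by laser microdissection. Groups are named below by condition and then training, for example control unpaired. No group without surgery or without training entered these comparisons, and strain, sex and age are not given in the sources used here.

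Small heat shock proteins, many of which form large oligomers, hold unfolding proteins without using ATP, and pass them on to the Hsp70 machine. In that machine a J domain protein such as Dnajb1 delivers the client and an Hsp110 such as Hsph1 exchanges the nucleotide. Hspa5 (BiP) is the Hsp70 of the endoplasmic reticulum, and Hspd1 (Hsp60) is the chaperonin of the mitochondrial matrix. Heat shock factor 1 drives many of these genes through heat shock elements, which are inverted repeats of nGAAn units. Hspa5 is controlled instead by the unfolded protein response through endoplasmic reticulum stress elements. In the brain, Hspb1 is a gene of reactive astrocytes, and Cryab is strongly expressed by oligodendrocytes.

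The promoters of 4 of these genes show how differently the members carry those elements. Those of Hspb1 and Hspb8 are printed because these genes passed the test of epileptogenic against control, as higher, in at least 1 fit below. Those of Hspa5 and Hspd1 are printed as examples of genes that passed it in none. Hsph1 and Dnajb1 passed it over both trainings in none either, and their promoters are not printed. Each is the 250 bases before the start of transcription, 5′ to 3′ on the gene's own strand, from RefSeq (GRCr8). Positions count from the start base as 0, and capitals mark every match. The Hspb1 stretch is chr12:26432302-26432551 on the minus strand and holds GAAGTTTC at -129 to -122 and GAACCTTC at -109 to -102. The Hspb8 stretch is chr12:45837058-45837307 on the plus strand and holds GAAGTTTC at -23 to -16. The Hspa5 stretch is chr3:38452766-38453015 on the plus strand and holds an endoplasmic reticulum stress element, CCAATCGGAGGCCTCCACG, at -43 to -25. The Hspd1 stretch is chr9:64084038-64084287 on the minus strand, where 3 overlapping repeats make 1 unbroken run from -242 to -225.
Hspb1: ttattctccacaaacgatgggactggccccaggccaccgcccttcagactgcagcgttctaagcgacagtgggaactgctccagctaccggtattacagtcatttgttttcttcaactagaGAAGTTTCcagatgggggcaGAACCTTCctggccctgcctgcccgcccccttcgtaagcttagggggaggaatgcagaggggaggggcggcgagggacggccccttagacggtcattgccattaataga
Hspb8: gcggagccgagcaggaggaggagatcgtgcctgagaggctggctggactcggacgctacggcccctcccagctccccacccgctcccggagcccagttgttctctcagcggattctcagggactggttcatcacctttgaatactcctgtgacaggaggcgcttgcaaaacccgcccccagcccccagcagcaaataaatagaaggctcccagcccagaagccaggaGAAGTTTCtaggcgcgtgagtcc
Hspa5: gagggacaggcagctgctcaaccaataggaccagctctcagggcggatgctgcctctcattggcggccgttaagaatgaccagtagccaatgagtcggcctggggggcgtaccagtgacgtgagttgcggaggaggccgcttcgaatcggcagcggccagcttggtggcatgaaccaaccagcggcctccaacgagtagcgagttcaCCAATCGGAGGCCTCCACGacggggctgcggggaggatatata
Hspd1: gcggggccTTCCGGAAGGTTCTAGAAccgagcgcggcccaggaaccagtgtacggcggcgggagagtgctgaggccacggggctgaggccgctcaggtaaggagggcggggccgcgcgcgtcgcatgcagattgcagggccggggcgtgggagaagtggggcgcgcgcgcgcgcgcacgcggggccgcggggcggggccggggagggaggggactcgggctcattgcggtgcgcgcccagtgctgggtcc

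Promoter sequences were at hand for 7 of the 10 members (not for Cryab, Hspa1b and Hsp90aa1), as windows of 300 bases, 250 before and 50 after the start. The motifs searched on both strands were GAANNTTC, TTCNNGAA and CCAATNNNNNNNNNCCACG, and the first 2 can overlap each other. Either inverted repeat was present in 6 of the 7 windows, all but that of Hspa5, against 15.9% of 33469 rat promoters (8.59% for GAANNTTC and 8.77% for TTCNNGAA). At least 3 alternating GAA and TTC units in a row were present in 3 of 7 (Hspa8, Hsph1 and Hspd1), against 0.798% of all promoters. The stress element was present in 1 of 7, Hspa5, and in 22 promoters of the table (0.0657%). These are matches of letters and not measured binding. Of these 3 genes Hsph1 and Hspd1 could be read, and neither passed the test of epileptogenic against control.

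Hspb1 RNA was higher on all epileptogenic arrays than on any control array, but passed the filter on dim probe sets through the epileptogenic arrays. The size of its rise is therefore not fixed. Cryab and Hspb8 had about double the signal without passing the test, and the larger chaperones showed no passing difference. The values that follow are log2 MAS5 signals, so that 1 unit is a doubling, and differences were tested with limma on a fit of the 4 group means, adjusted by Benjamini-Hochberg over 18625 probe sets. Of the 8 member probe sets 1 passed at an adjusted p under 0.05, and 3.63% of all tested probe sets did. Of all 10364 named genes tested, 3.75% were called higher and 0.772% lower. With the letter entered as a block, 3 of the 8 passed, beside a background of 16.2%. The members were not chosen blind to these data, so these shares are given for scale only. In bulk samples such as these, more or fewer cells of a type and more or less RNA per cell cannot be told apart.

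**Figure D1:**
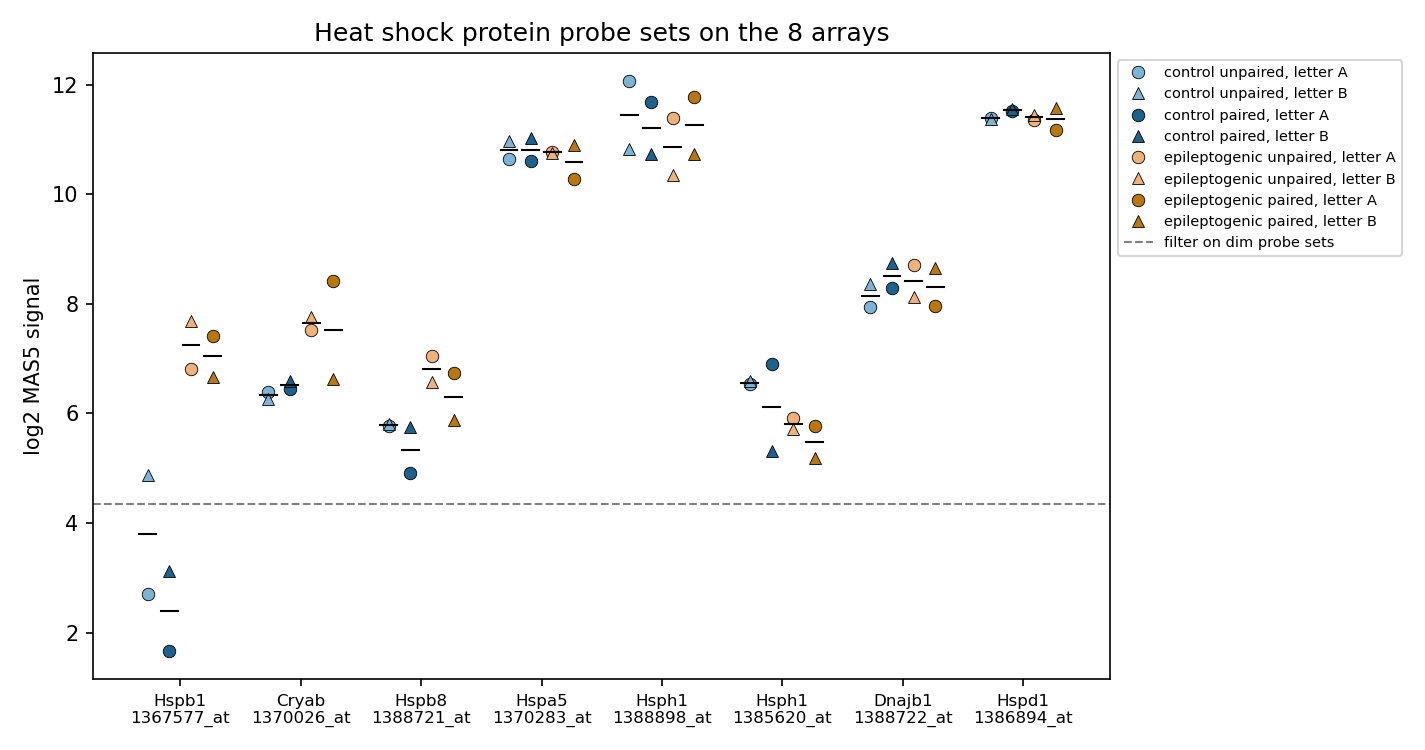
Log2 MAS5 signal (vertical axis) of the 8 tested probe sets (horizontal axis) on each of the 8 arrays; colour gives the group, circles are letter A, triangles letter B, short bars are group means and the dashed line is the filter level of 4.35. The 4 epileptogenic arrays of Hspb1 lie between 6.67 and 7.69, above all 4 control arrays.

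Hspb1 (Hsp27, probe set 1367577_at) was the member that moved most. Its control unpaired arrays read 2.71 (A) and 4.88 (B) and its control paired arrays 1.67 and 3.12. Its epileptogenic unpaired arrays read 6.82 and 7.69 and its epileptogenic paired arrays 7.41 and 6.67. Every epileptogenic array stood above every control array, and of the controls the control unpaired B array alone passed the filter level. As signals, the controls ran from 3.18 to 29.4 and the epileptogenic arrays from 102 to 207.

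The epileptogenic mean of Hspb1 was 7.15 ± 0.48 (SD, n = 4) and the control mean 3.09 ± 1.34 (SD, n = 4). The difference was 4.06 ± 0.55 (SE; 95% interval 2.82 to 5.29) with a limma adjusted p of 0.00550. On 3 of the 4 control arrays the probe set was under the filter level, which it passed through the epileptogenic arrays, and no background was measured, so the size of the rise is not fixed. With 16 added to every signal before the log the difference was 2.59 (adjusted p = 0.00291). Within the letter A arrays the difference was 4.93 and within the letter B arrays 3.19. The call held in each of the 8 fits that left out 1 array, with differences from 3.51 to 4.60.

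Cryab (alpha B-crystallin, probe set 1370026_at) read 6.40 and 6.27 in control unpaired arrays and 6.45 and 6.59 in control paired arrays. It read 7.52 and 7.77 in epileptogenic unpaired arrays and 8.41 and 6.64 in epileptogenic paired arrays. The controls lay within a narrow band, and the epileptogenic arrays lay above it, the paired B array by a very small margin. The means were 7.58 ± 0.74 and 6.43 ± 0.13 (SD, n = 4 each), a difference of 1.16 ± 0.35 (SE; 95% interval 0.37 to 1.95), or 2.23-fold. This did not pass (limma adjusted p = 0.114). It passed with the letter as a block (adjusted p = 0.0294) and without the epileptogenic paired B array (a difference of 1.60, adjusted p = 0.0191). Without the epileptogenic paired A array it was 0.71 (adjusted p = 0.202).

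Hspb8 (Hsp22, a partner of the co-chaperone Bag3 in selective autophagy, probe set 1388721_at) read 5.78 and 5.81 in control unpaired arrays and 4.90 and 5.75 in control paired arrays. It read 7.06 and 6.57 in epileptogenic unpaired arrays and 6.74 and 5.88 in epileptogenic paired arrays. The groups did not overlap, but the epileptogenic paired B array again stood close to the controls. The means were 6.56 ± 0.50 and 5.56 ± 0.44 (SD, n = 4 each), a difference of 1.00 ± 0.30 (SE; 95% interval 0.32 to 1.68), or 2.00-fold. The limma adjusted p was 0.114, and 0.0377 with the letter as a block. Within letter A the difference was 1.55 and within letter B 0.44. The second Hspb8 probe set, 1387282_at, ranged from 0.80 to 4.12 over the 8 arrays with overlapping groups and was not tested.

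Hspb1, Cryab and Hspb8 therefore each had epileptogenic arrays that did not overlap the controls, as did 7.29% of all tested probe sets in that direction. The 3 further small heat shock proteins that were tested, Hspb6, Hspb7 and Hspb9, all had overlapping groups. Of the 5 tested probe sets of larger chaperones, all had overlapping groups. Across the 8 arrays Cryab and Hspb8 ran alike, with a root mean square distance of 0.44 between their log2 values after each was centred on its mean. Hspb1 was at least 1.70 from every other member.

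**Figure D2:**
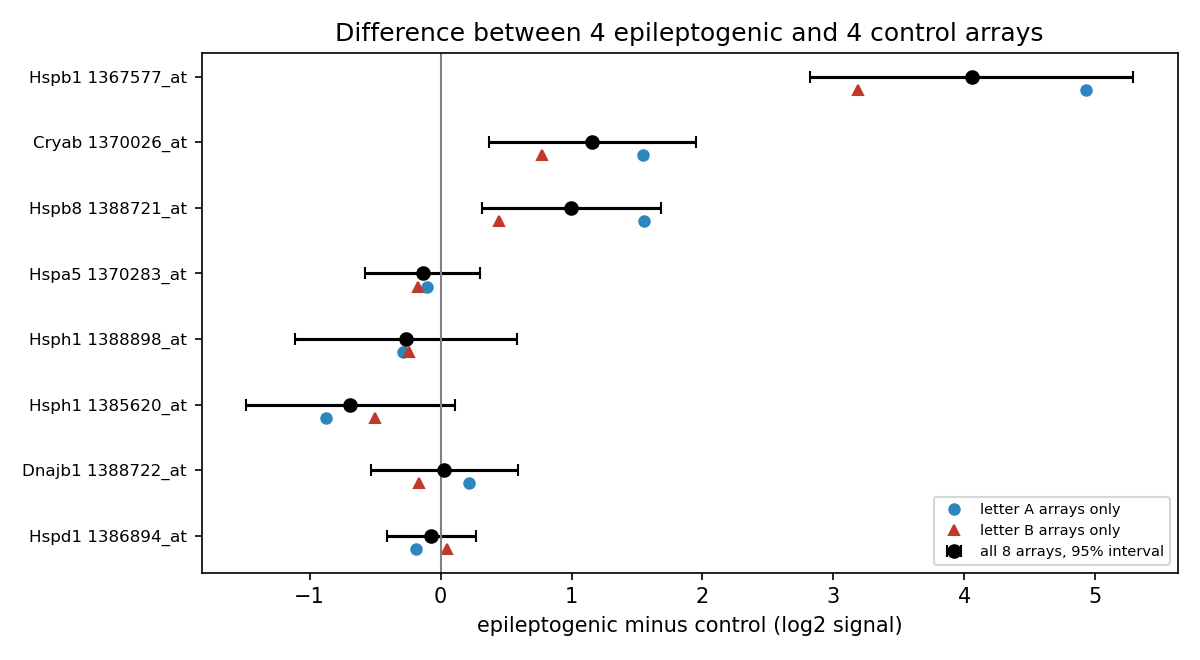
Epileptogenic minus control difference in log2 signal (horizontal axis) for the 8 tested probe sets (rows); black points with bars are the limma estimate over all 8 arrays with its 95% interval, blue circles the letter A arrays alone and red triangles the letter B arrays alone. The intervals of Hspb1 (2.82 to 5.29), Cryab (0.37 to 1.95) and Hspb8 (0.32 to 1.68) lie above 0 and the other 5 include 0.

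Hspa5, the chaperone of the endoplasmic reticulum (probe set 1370283_at), was bright on all arrays. It read 10.65 and 10.98 in control unpaired arrays, 10.61 and 11.02 in control paired arrays, 10.77 and 10.76 in epileptogenic unpaired arrays and 10.28 and 10.89 in epileptogenic paired arrays. The groups overlapped almost fully, with the epileptogenic paired A array the lowest. The difference was -0.14 ± 0.19 (SE; 95% interval -0.57 to 0.30; limma adjusted p = 0.763). The interval excludes a doubling in either direction.

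Hspd1 (Hsp60, probe set 1386894_at) was the steadiest member, with a range of 0.40 over all 8 arrays. It read 11.40 and 11.38 in control unpaired arrays, 11.52 and 11.55 in control paired arrays, 11.36 and 11.45 in epileptogenic unpaired arrays and 11.18 and 11.58 in epileptogenic paired arrays. The lowest and the highest array belonged to the same group. The difference was -0.07 ± 0.15 (SE; 95% interval -0.41 to 0.27; limma adjusted p = 0.854), and its sign turned under quantile normalization (0.012) and under median centring (0.036). Hspa5 and Hspd1 had the closest profiles of any pair of members, at a distance of 0.16.

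Dnajb1 (Hsp40, probe set 1388722_at), a heat-inducible J domain protein of the cytosol, read 7.94 and 8.36 in control unpaired arrays and 8.29 and 8.75 in control paired arrays. It read 8.71 and 8.12 in epileptogenic unpaired arrays and 7.96 and 8.66 in epileptogenic paired arrays. High and low arrays occurred in each condition. The difference was 0.03 ± 0.25 (SE; 95% interval -0.53 to 0.59; limma adjusted p = 0.967). Its second probe set, 1383302_at, ran from 2.15 to 4.22 and was not tested.

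Hsph1 (Hsp105, an Hsp110) was read by 2 tested probe sets of very different brightness. The brighter, 1388898_at, read 12.06 and 10.83 in control unpaired arrays, 11.68 and 10.75 in control paired arrays, 11.40 and 10.35 in epileptogenic unpaired arrays and 11.77 and 10.74 in epileptogenic paired arrays. In each group the A array stood above the B array, by 1.23, 0.94, 1.05 and 1.03, while conditions overlapped. The difference between epileptogenic and control was -0.26 ± 0.38 (SE; 95% interval -1.11 to 0.58; limma adjusted p = 0.763; with the letter as a block 0.110). The dimmer probe set, 1385620_at, ran from 5.32 to 6.91 in controls and from 5.19 to 5.92 in epileptogenic arrays, a difference of -0.69 ± 0.35 (SE; 95% interval -1.49 to 0.11; adjusted p = 0.342). Leaving out the control paired A array gave -0.29, and leaving out the B array of that group gave -1.09.

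The letter is a property of the arrays that the labels do not explain, and the brighter Hsph1 probe set followed it more closely than any other member did. Of all tested probe sets, 21.2% read higher on A than on B in all 4 groups, and 3.98% did so by over 0.5 in each (a limit chosen after the values were seen). The other 7 member probe sets crossed 0 or stayed within 0.5 in at least 1 group. Hspb1 was lower on A than on B in 3 groups (A minus B of -2.17 in control unpaired, -1.45 in control paired and -0.88 in epileptogenic unpaired arrays) and higher in the epileptogenic paired group (0.74).

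**Figure D3:**
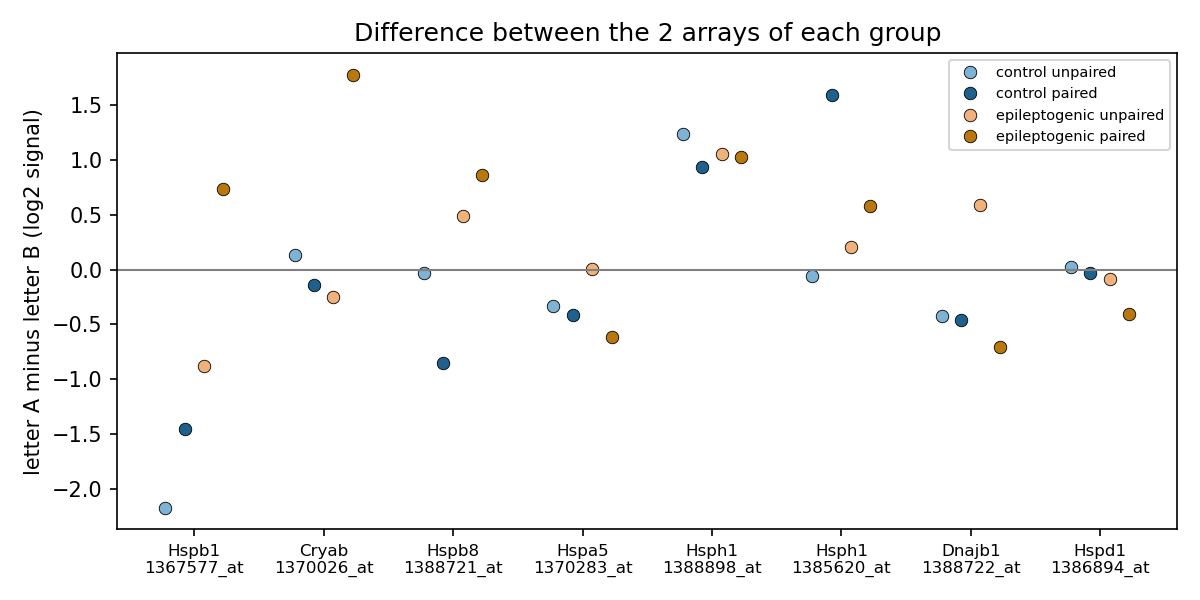
Letter A minus letter B difference in log2 signal (vertical axis) within each of the 4 groups (coloured points) for the 8 tested probe sets (horizontal axis). Hsph1 1388898_at lies between 0.94 and 1.23 in all 4 groups. Some points of other members lie further from 0 (Hspb1 -2.17 in control unpaired, Cryab 1.78 in epileptogenic paired arrays), but none of those probe sets keeps to the same side by over 0.5 in all 4 groups.

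The type of training changed no member detectably. Paired against unpaired training over all rats gave 0 of 8 passing probe sets, with differences from -0.81 to 0.13. No probe set of the array passed in that comparison (0%), where 214 had an unadjusted limma p under 0.05, none of them a member. The 95% intervals of the members ran from -2.04 at the lowest to 0.92 at the highest, so changes of up to those sizes are not excluded. Within control rats (background 0%) the members' differences ran from -1.40, for Hspb1, to 0.37. Within epileptogenic rats (background 0%) they ran from -0.51, for Hspb8, to 0.38. Members at an unadjusted p under 0.05 numbered 0 in each of these comparisons, and members passing numbered 0 with the letter as a block as well.

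The rise of Hspb1 was measured after either training. After paired training it was 4.65 ± 0.77 (SE; 95% interval 2.91 to 6.39), with an adjusted p of 0.0421, beside a background of 0.532% of probe sets called. Both control paired arrays were under the filter level, and with the offset of 16 the difference was 2.77 (adjusted p = 0.0289). That call was lost under quantile normalization (adjusted p = 0.0740), median centring (0.107) and a fit with no intensity trend (0.119). It was also lost in the fits without control paired A (0.286), control paired B (0.0626), epileptogenic unpaired A (0.0659) or B (0.0754), or epileptogenic paired A (0.299) or B (0.141), where the difference stayed between 3.93 and 5.37. After unpaired training the difference was 3.46 ± 0.77 (SE; 95% interval 1.72 to 5.21), which did not pass (adjusted p = 0.113; background 0.317%). It was 2.41 with the offset of 16 (adjusted p = 0.0511), and ranged from 2.38 (without control unpaired A, adjusted p = 0.383) to 4.55 when 1 array was left out. With the letter as a block it passed after paired (adjusted p = 0.00349, background 4.62%) and after unpaired training (adjusted p = 0.0130, background 7.01%).

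The difference between those 2 effects, the interaction of training and epileptogenesis, was 1.19 ± 1.10 for Hspb1 (SE; 95% interval -1.28 to 3.65; limma adjusted p = 1.00). It rests on control groups at or under the filter level (means of 3.80 and 2.39): it was 0.36 with the offset of 16, and ran from 0.10 (without control unpaired B) to 2.27 (without control unpaired A) when 1 array was left out. No member passed the interaction, nor did any probe set (0%). The other members' interactions lay between -0.47 (Dnajb1) and 0.61 (Hsph1). Cryab differed by 1.31 ± 0.50 after unpaired training (adjusted p = 0.320) and by 1.01 ± 0.50 after paired training (adjusted p = 0.555). Hspb8 differed by 1.02 ± 0.43 (adjusted p = 0.368) and 0.98 ± 0.43 (adjusted p = 0.490). When 1 array was left out, the values after paired training ran from 0.12 (without the epileptogenic A array of that training) to 1.89 (without its B array) for Cryab and from 0.55 to 1.41 for Hspb8. Hsph1 (1388898_at) had -0.57 ± 0.53 after unpaired training (adjusted p = 0.715; passing with the letter as a block at 0.0445) and 0.04 ± 0.53 after paired training (adjusted p = 0.994).

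Among 111 further chaperone and stress genes in 7 lists, 95 were tested in epileptogenic against control, and 4 were called higher and 0 lower. Their median difference was -0.07, and over all 10364 named genes it was also -0.07. The 4 called genes belong to protein folding in the endoplasmic reticulum, to the Hsp70 family and to heme breakdown. With the letter as a block, 8 were higher and 2 lower, against 974 and 817 of all named genes. The fits without control unpaired B, control paired A, epileptogenic unpaired A or epileptogenic paired B called 2 of these genes, and the fits without epileptogenic unpaired B or epileptogenic paired A called 1.

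The list of endoplasmic reticulum folding and the unfolded protein response, the neighbourhood of Hspa5, held 2 of these among 20 tested genes, with a median of 0.19 and 15 of 20 above 0. Over all 10364 named genes 389 were called higher and 4498 were above 0. Sdf2l1, a partner of the Hspa5 cycle, ran from 6.36 to 6.60 in controls and from 7.50 to 8.18 in epileptogenic arrays. Its difference was 1.35 ± 0.20 (SE; limma adjusted p = 0.00826), and it passed in all 16 alternative fits. P4hb, a protein disulfide isomerase, ran from 8.77 to 9.17 and from 9.84 to 10.03, a difference of 0.90 ± 0.17 (adjusted p = 0.0212). Its call was lost on leaving out any single array other than control unpaired A (adjusted p 0.0543 to 0.0823), under median centring (0.0580) and with no intensity trend (0.0730). Canx, calnexin, named here after its values were seen, was not called by its brighter probe set (-0.09 ± 0.19, adjusted p = 0.847) but its second one, 1388442_at, gave 0.78 ± 0.16 (adjusted p = 0.0284). Hspa5 itself did not pass.

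In the Hsp70 and Hsp110 list 1 of 9 tested genes was called and the median was 0.04. It was Hspa2, which ran from 8.41 to 9.59 in controls and from 9.81 to 10.24 in epileptogenic arrays (0.91 ± 0.21 SE, limma adjusted p = 0.0494). That call was lost in 11 of 16 alternative fits, among them the fits without any single array other than control paired B (adjusted p 0.0768 to 0.158). The list of heat shock factors and their other target genes had 1 call among 6 tested genes, with a median of 0.35. It was Hmox1, heme oxygenase 1, which ran from 4.84 to 5.31 and from 5.99 to 7.24 (1.64 ± 0.27, adjusted p = 0.0152), and lost its call without epileptogenic unpaired B (0.0779) or epileptogenic paired A (0.0624). The 3 heat shock factors tested, named here after their values were seen, read -0.34 ± 0.53 (Hsf1, adjusted p = 0.790), -0.02 ± 0.16 (Hsf2, adjusted p = 0.968) and 0.05 ± 0.59 (Hsf4, adjusted p = 0.975).

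The other 4 lists had no called gene. Of 3 tested further small heat shock proteins the one with the smallest p was Hspb6 (0.18 ± 0.41, adjusted p = 0.861), and the median was -0.20. Of 23 J domain proteins it was Dnajc27 (-0.69 ± 0.18, adjusted p = 0.0764; median -0.19). Of 21 members of the Hsp90 family and its co-chaperones it was Bag3, the partner of Hspb8, with controls from 5.25 to 6.15 and epileptogenic arrays from 6.56 to 6.72 (0.75 ± 0.26, adjusted p = 0.157; median -0.20). Of 13 chaperonin and prefoldin genes it was Pfdn2 (-0.24 ± 0.20, adjusted p = 0.571, and -0.13 on its second probe set; median -0.18).

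**Figure D4:**
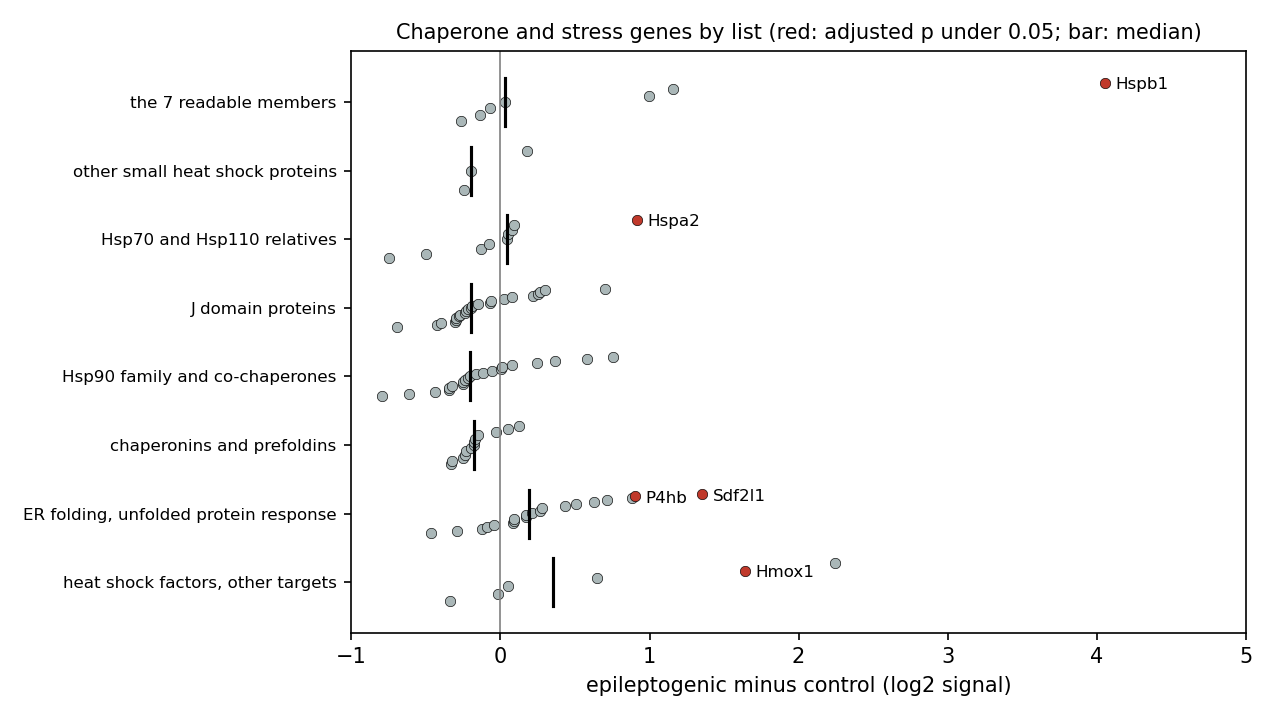
Epileptogenic minus control difference in log2 signal (horizontal axis) of each tested gene, by list (rows, the 7 readable members in the top row); red points have a limma adjusted p under 0.05 and black bars are list medians. Hspb1 at 4.06 stands to the right of every other gene drawn, and 4 further genes (Hspa2, Sdf2l1, P4hb and Hmox1) are red.

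Markers of several cell types differed between the same arrays. Of 11 tested astrocyte markers 4 passed as higher and 9 were above 0 (median 0.36; Gfap 2.83, Vim 2.10). Astrocyte markers summed to signals of 16863 to 27530 in controls and 24985 to 31363 in epileptogenic arrays. Of 13 tested microglia and macrophage markers 12 passed as higher and the same number were above 0 (median 2.33; Aif1 2.72, Cd68 3.98). Microglia and macrophage markers summed to 1112 to 1595 and 5799 to 8805. Of 10 tested oligodendrocyte markers 1 passed as higher and all 10 were above 0 (median 0.53; Mbp 0.42, Mog 0.56, neither passing). Oligodendrocyte markers summed to 10539 to 13505 in controls. In epileptogenic arrays they summed to 18298 and 15999 (unpaired A and B) and to 26254 and 13511 (paired A and B). The paired A and B arrays were also the highest and lowest epileptogenic arrays for Cryab, and elsewhere the order of Cryab differed from that of the sum. The sum is led by the brightest markers, and single markers did not all keep its order (unpaired A and B: Mbp 12.18 and 11.82, Aspa 8.10 and 9.04). Aspa, named here after its values were seen, was the 1 oligodendrocyte marker that passed (1.74 ± 0.26, limma adjusted p = 0.00893). Of 12 tested neuron markers 1 passed as lower and only 1 was above 0 (median -0.74; Rbfox3 -0.94, Slc17a7 -0.85, neither passing). Neuron markers summed to 14745 to 20535 and 9463 to 15528. Of 11 endothelium and mural markers none passed (median 0.09; Pecam1 0.09, Cldn5 0.32), nor did the 1 tested blood marker (Hbb, -1.02). With the letter as a block the counts were 5 astrocyte, 12 microglia, 4 oligodendrocyte and 1 endothelium markers higher and 6 neuron markers lower. Gjb1 of the oligodendrocyte list and S100a9 of the blood list lay under the filter level on every array. Some markers named here had a further tested probe set. It gave -0.51 ± 0.36 for Aif1 (limma adjusted p = 0.498) and -0.12 ± 0.23 for Mbp (0.832), both against the sign of the brighter one. For Rbfox3 it gave -1.86 ± 0.90 (0.311). The part of these shifts in the differences of Hspb1, Cryab and Hspb8 was not tested.

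RNA quality was read from the array's control probe sets as the 3′ minus the 5′ log2 signal. For Gapdh it ran from 3.33 to 3.69 in controls and from 3.09 to 4.19 in epileptogenic arrays. For beta-actin it ran from 1.87 to 4.42 and from 3.07 to 4.45. The ranges of the conditions overlapped. By letter, beta-actin was lower on A than on B in every group. A and B read 1.87 and 4.42 (control unpaired) and 3.21 and 4.30 (control paired). They read 3.63 and 3.82 (epileptogenic unpaired) and 3.07 and 4.45 (epileptogenic paired). Gapdh kept no such order (3.35 and 3.33, 3.52 and 3.69, 4.00 and 3.09, 4.19 and 3.22 in the same groups). Whether RNA quality had a part in the letter differences of the members was not tested. Arrays correlated with each other at 0.846 to 0.963, their median signals ran from 29.0 to 43.2, and their number limits the precision. The median difference over all 18625 probe sets was -0.11 and became -0.005 on median centring, so differences of the members near 0 have no settled sign.

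The genes whose centred profile over the 8 arrays lay closest to 3 members were found among 10363 others. Nearest to Hspb1 were Pros1, Ifgga2l1 and Tagap, each at a root mean square distance of 0.84. Pros1, which encodes protein S, averaged 4.67 in controls and 7.75 in epileptogenic arrays, and Tagap 3.13 and 6.52. Nearest to Hspa5 were Ngrn (0.061), Rab11fip5 (0.069) and Pold3 (0.097), and nearest to Dnajb1 were Znf48 (0.11), Ell (0.14) and Dynll2 (0.14). Distances are small where a profile is nearly flat, so those of different members are not comparable.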

How the data were processed

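RNA of 8 pools was amplified in 2 rounds and hybridised to 8 arrays. The authors' deposited intensity values are linear signals per probe set, made with MAS5 per the submitters' processing notes; its version and scaling are not given in the sources used here. Signals were taken to log2 and not normalized again. Without the 57 control probe sets, 18625 of 31042 probe sets, those with a mean above the 40th percentile, entered the tests. A fit of 4 group means with limma 3.58.1 (R 4.3.3; empirical Bayes with intensity trend, two-sided) gave 7 comparisons, each adjusted by Benjamini-Hochberg at 0.05. It was tried on simulated data with the same spread for every probe set, narrower than the median spread here. That trial therefore does not cover dim and variable probe sets. SEs come from that fit and SDs from arrays. P-values measure only the spread between these pools.

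Deviations of like-lettered arrays from their group means correlated at 0.321 to 0.407 in all 6 pairs of groups, so the letter from the labels was accepted as a pairing, and the fit with it as a block is given where it changes a call. A gene was read by its brightest probe set. Named by rule were all members, the genes of each list that passed or else the one with the smallest p, the first 2 tested markers of each type, and the 3 nearest profiles of 3 members; other genes are marked in the text. Members and lists were chosen with earlier results of these data known. Promoters are from RefSeq. Summaries and figures used Python 3.11.15 and matplotlib 3.10.9.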

Additional observations from a re-analysis of the deposited data

Results flagged for a closer look

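Hspb8 (1388721_at) was low on the control paired A array, at a log2 signal of 4.90. Its gap to the nearest of the other control arrays was 0.936 of the range of the 4 control arrays, above Dixon's 95% critical value for 4 arrays. Such a test was made for 16 sets of 4 arrays (8 probe sets, in control and in epileptogenic arrays), and chance gives about 1 flag in 20.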

How the results depend on the processing

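Hspb1 passed in epileptogenic against control in each of the 15 alternatives that tested it, with differences from 2.59 to 4.60 and adjusted p from 0.000417 to 0.0370. The count of 8 member probe sets called (1) became 3 with the letter as a replicate block and 0 under the 60th percentile filter, which leaves Hspb1 out, and ranged from 1 to 2 when 1 array was left out. After unpaired training the count (0) became 2 with the replicate block. After paired training it (1) became 0 under quantile normalization, median centring, the 60th percentile filter and no intensity trend, and ranged from 0 to 1 when 1 array was left out. The count of other chaperone and stress genes called (4), whose alternatives were chosen after seeing the data, became 2 under median centring, 2 with no intensity trend and 10 with the replicate block, and ranged from 1 to 4 when 1 array was left out. The block changed no other member call than those given. Signs near 0 turned: Hspd1 became 0.012 under quantile normalization and 0.036 under median centring. On leaving out 1 array, Hspd1 ranged from -0.17 to 0.031, Hspa5 from -0.29 to 0.016, Hsph1 (1388898_at) from -0.57 to 0.043 and Dnajb1 from -0.15 to 0.21. Hsph1 (1388898_at) also turned after unpaired training (-1.19 to 0.044), after paired training (-0.47 to 0.56, and -0.036 under quantile normalization), in the interaction (-0.0013 to 1.23) and for training in epileptogenic rats (-0.14 to 0.91). Dnajb1 turned for training over all rats (-0.047 to 0.31). Over all probe sets, calls in epileptogenic against control (677, of which 523 higher and 154 lower) became 389 (377 and 12) under median centring and 3022 (1411 and 1611) with the block, 330 (297 and 33) with no intensity trend, and 224 to 435 (13 to 82 lower) when 1 array was left out; the cause was not tested. Training and interaction comparisons called 0 member probe sets in all 16 alternatives. Detection calls were not used here, so the dim control values of Hspb1 have no measured background.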

Other observations

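Of the other chaperone and stress genes, 6 did not pass in epileptogenic against control and passed with the letter as a block, and they are named here because of that, after their values were seen. The block called 8 of the 95 tested genes of these lists higher and 2 lower. It called 974 of all 10364 named genes higher and 817 lower, so the lists do not stand out by this count. In the endoplasmic reticulum list Herpud1, a component of the degradation machinery there, differed by 0.88 ± 0.23 (SE; limma adjusted p = 0.0759, with the block 0.0165), and Pdia3, a disulfide isomerase, by 0.43 ± 0.30 (0.491, with the block 0.0483). Dnajc3, a J domain partner of Hspa5, differed by 0.70 ± 0.23 (0.136, with the block 0.0278). Mt2A, a metallothionein, ran from 4.69 to 8.00 in controls and from 7.91 to 9.82 in epileptogenic arrays, a difference of 2.25 ± 0.60 (0.0799, with the block 0.0239). Hspa12a (-0.75 ± 0.21, 0.0915, with the block 0.0169) and Dnajc27 (-0.69 ± 0.18, 0.0764, with the block 0.00979) were lower in epileptogenic arrays.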
